A study of Mus musculus with 16 samples.

Results

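Expression was examined for 10 genes that make, store and break down dopamine and serotonin, in islets from mice with a tamoxifen-induced deletion of Insm1 in beta cells. The genes were chosen by symbol: Th, Gch1, Tph1, Tph2, Ddc, Dbh, Slc18a1, Slc18a2, Maoa and Maob. All 10 had a probe set that names the gene alone, and they are 10 of the 18193 genes measured, with 17 probe sets of 45101. Each gene was read from its brightest probe set, by the mean over all 16 arrays, a choice that does not use the groups. The set was put together after a fall of Th in these data was known, so the values of Th are given as a description, without a test.

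The mutant group was 8 islet preparations, labelled RIPcreER; Insm1flox/lacZ, in which the second Insm1 allele carries lacZ. The control group was 8 preparations labelled RIPcreER; Insm1flox/+. All mice thus carried the inducible recombinase RIPcreER, driven by the rat insulin promoter, and 1 floxed allele of Insm1, which encodes a zinc finger factor of endocrine cells. All received 25 mg of tamoxifen, released over 21 days, given when 4 to 5 weeks old, and were 8 to 12 weeks old at islet collection. The strain background was mixed, with parts of CBA/J, C57BL/6 and 129/ola. The control mice could also lose their floxed allele in beta cells, so they are no model of intact Insm1. All cells of the mutants carried the lacZ allele, where those of the controls carried the + allele. The groups thus differed at Insm1 in all cells, before tamoxifen as well as after it. Each preparation was read on 1 Affymetrix mouse array (Mouse430_2), and the values are log2 signals. The signal of Insm1 averaged 11.02 ± 0.22 in mutant and 11.26 ± 0.23 in control islets (SD, n = 8 each) and did not pass the test (limma, adjusted p = 0.182). The sources used here do not place these probes relative to the deleted part, so the signal is no check of the labels.

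Dopamine is made from tyrosine in a pair of steps. Tyrosine hydroxylase makes L-DOPA, with tetrahydrobiopterin as its cofactor, and aromatic L-amino acid decarboxylase removes the carboxyl group. Serotonin is made from tryptophan in the same way, by a tryptophan hydroxylase that needs the same cofactor and then by the same decarboxylase. Vesicular monoamine transporters load both amines into granules, and monoamine oxidases on the outer mitochondrial membrane break them down. Beta cells can take up amine precursors and store the amines beside insulin. In mice, beta cells make serotonin during pregnancy, when Tph1 is strongly induced.

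Of the 9 genes other than Th, 3 were lower and 1 was higher in mutant islets at an adjusted p under 0.05 in a limma fit over all genes, and 5 were not called. Over all 18193 genes, 8.76% were called, 4.66% lower and 4.10% higher. The groups did not overlap for 2 of these 9 genes, Tph2 and Maob, against 2.29% of all genes. The median difference was −0.09 over the 9 genes and −0.01 over all genes, on the log2 scale. The median size of a difference was 0.15 over the 9 genes and 0.09 over all genes. These shares describe a set chosen with results in view and support no statement about the pathway as a whole. With the replicate number as a block, the same 4 of 9 genes were called, where 17.6% of all genes were. In the fit over every probe set, used below for second readings of a gene, 6.86% were called.

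Promoter sequences are shown for Th and for the called genes that the sequence table held, since the results turn on these genes. RefSeq promoters on GRCm38.p6 were found for 8 of the 10 genes, each running from 250 bases before to 50 bases after the annotated start. Slc18a1 and Maob had no entry. The lines below give Th at chr7:142899946-142900245, Gch1 at chr14:47189364-47189663 and Tph2 at chr10:115184973-115185272, all on the minus strand and written 5′ to 3′. Capitals mark matches on either strand to an E-box (CANNTG), a cAMP response element (TGACGTCA), a forkhead core (TGTTTNC) or a TATA box (TATAAA).
Th: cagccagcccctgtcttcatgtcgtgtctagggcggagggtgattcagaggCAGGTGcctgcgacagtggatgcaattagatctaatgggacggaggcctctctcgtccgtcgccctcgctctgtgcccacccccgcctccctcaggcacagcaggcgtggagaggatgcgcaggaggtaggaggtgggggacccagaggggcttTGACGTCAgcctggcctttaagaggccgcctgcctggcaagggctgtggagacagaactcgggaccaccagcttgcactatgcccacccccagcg
Gch1: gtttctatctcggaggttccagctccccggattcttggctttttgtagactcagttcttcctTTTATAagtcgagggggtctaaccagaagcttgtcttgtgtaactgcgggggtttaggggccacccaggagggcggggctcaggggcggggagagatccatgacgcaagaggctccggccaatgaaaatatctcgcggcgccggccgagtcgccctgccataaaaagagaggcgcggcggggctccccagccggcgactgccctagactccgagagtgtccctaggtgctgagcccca
Tph2: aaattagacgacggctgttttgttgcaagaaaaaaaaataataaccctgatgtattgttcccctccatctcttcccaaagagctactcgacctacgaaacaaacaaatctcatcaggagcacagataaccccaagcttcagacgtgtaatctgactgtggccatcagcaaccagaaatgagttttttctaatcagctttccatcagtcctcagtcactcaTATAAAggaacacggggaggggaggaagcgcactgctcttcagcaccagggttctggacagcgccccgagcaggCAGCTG

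The Th window held 1 E-box, starting at base 52, and 1 full cAMP response element, starting at base 206. The cAMP response element is a known control element of Th in neurons and adrenal medulla. It occurred in 1.79% of the 32851 promoters of this length, and among the 8 genes with a promoter also in that of Slc18a2. The Gch1 window held no E-box, and its TATA box match lay on the opposite strand at base 63. The Tph2 window held a TATA box at base 221 and an E-box at its last 6 bases. E-boxes occurred in 72.3% of promoters, forkhead cores in 20.5% and TATA boxes in 13.6%. A forkhead core was found in the Dbh window, with 2 matches, and in none of the Th, Gch1 or Tph2 windows. A match is only a string of letters, and no binding was measured here.

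Of the hydroxylases and their cofactor enzyme, Th and Gch1 were lower and Tph2 was higher in mutant islets. Th encodes tyrosine hydroxylase, the rate-limiting enzyme of dopamine synthesis. Its signal lay at 6.53, 7.50 and 8.04 (lowest, median and highest of 8) in mutant islets, against 8.80, 9.07 and 10.05 in control islets. Every mutant array thus lay below every control array. The means were 7.44 ± 0.53 in mutant and 9.25 ± 0.44 in control islets (SD, n = 8 each), a difference of −1.80 ± 0.22 (SE) or 3.49-fold lower in mutant islets. Mutant arrays were lower in 8 of 8 pairs with the same replicate number, by up to −2.27. Only 1 probe set reads Th, so no second reading of this gene was available.

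Gch1 encodes GTP cyclohydrolase 1, which makes the first intermediate of tetrahydrobiopterin. Its signal lay at 9.87, 10.26 and 10.88 in mutant islets, against 10.86, 11.46 and 11.61 in control islets. The groups met at a single point, with the highest mutant array (replicate 5) just above the lowest control array (replicate 2). The means were 10.31 ± 0.33 in mutant and 11.38 ± 0.28 in control islets (SD, n = 8 each). Gch1 was 2.09-fold lower in mutant islets (−1.06 ± 0.14 SE, limma adjusted p = 9.57e-05), and lower in 8 of 8 pairs. Its other probe set, tested over all probe sets, was lower by −0.85 ± 0.14 (SE, adjusted p = 0.000814). Both readings of Gch1 thus fell.

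Tph2 encodes tryptophan hydroxylase 2, the enzyme of serotonin neurons in the brain. Its signal lay at 6.11, 6.66 and 6.90 in mutant islets, against 3.92, 4.57 and 4.81 in control islets, and the groups did not overlap. The means were 6.59 ± 0.26 in mutant and 4.49 ± 0.27 in control islets (SD, n = 8 each). Tph2 was 4.27-fold higher in mutant islets (2.10 ± 0.13 SE, limma adjusted p = 9.7e-09), higher in 8 of 8 pairs, and ranked 9 of all genes by p. No detection calls were given, so signals were set against the 44 probe sets of olfactory receptor genes, which stand here for genes that are off. Their median was 4.61, their 95th percentile 6.29 and their highest value 6.89. The Tph2 signal was above this percentile on 7 of 8 mutant arrays and 0 of 8 control arrays. The mutant mean (6.59) still lay below that highest value, which the highest mutant array (6.90) barely passed. Signals this low are compressed by background, so the fold is one of signals, and only 1 probe set reads the gene.

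Tph1, the tryptophan hydroxylase of peripheral tissues and of beta cells in pregnancy, stayed under that percentile on all 16 arrays. It averaged 3.80 ± 0.08 in mutant and 3.92 ± 0.11 in control islets (SD, n = 8 each), a difference of −0.13 ± 0.05 (SE, limma adjusted p = 0.124). A signal this low gives no reading of a change.

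**Figure D1:**
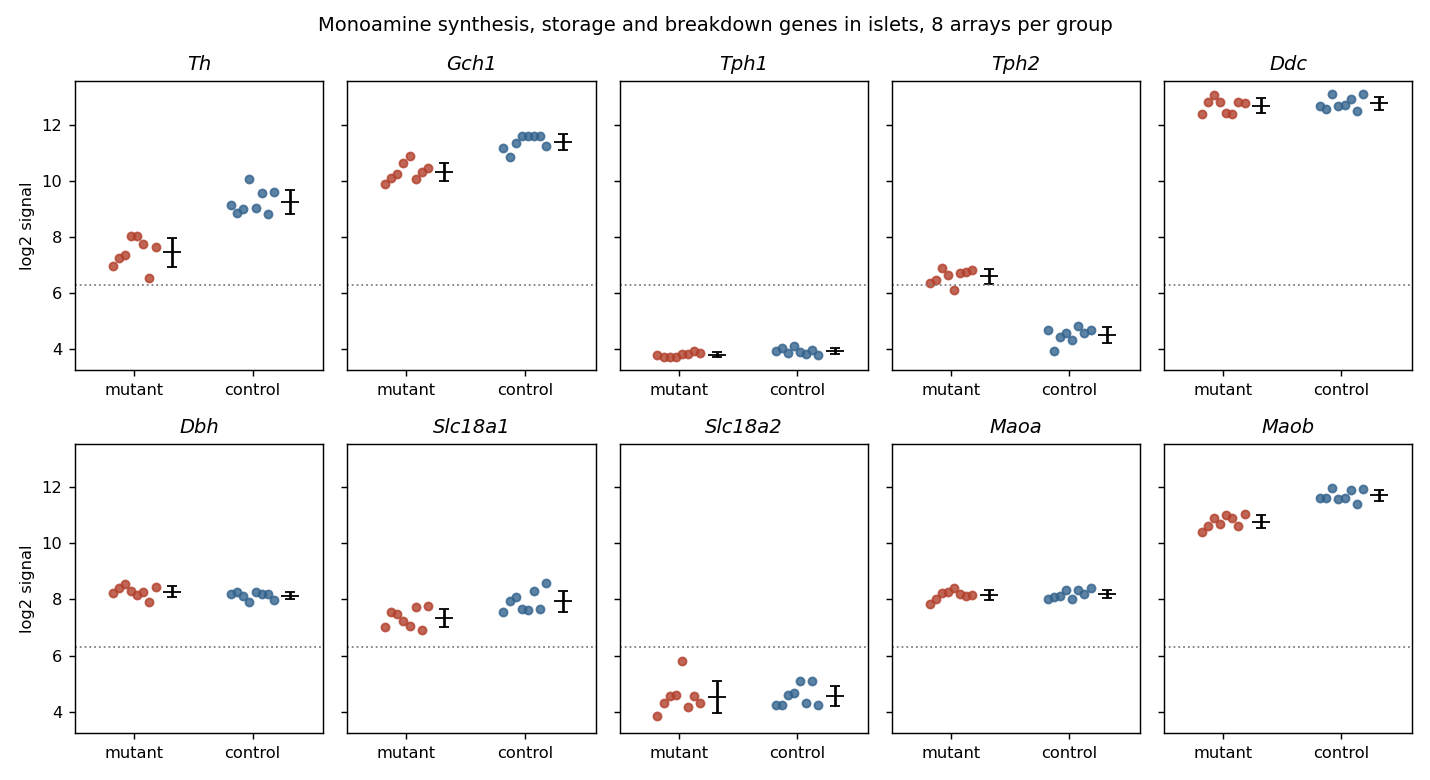
Log2 signal of the brightest probe set of each of the 10 genes, with 1 point per array, mutant left of control, and mean ± SD beside the points (n = 8 each). The dotted line is the 95th percentile of olfactory receptor probe sets (6.29). Th and Maob are lower and Tph2 higher on every mutant array than on any control array, while Tph1 and Slc18a2 lie below the line in both groups.

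The decarboxylase shared by both routes gave readings that differed between its probe sets. Ddc encodes aromatic L-amino acid decarboxylase. Its brighter probe set lay at 12.37, 12.79 and 13.06 in mutant islets, against 12.49, 12.68 and 13.09 in control islets, and the groups covered the same range. The difference was −0.09 ± 0.11 (SE, n = 8 each, limma adjusted p = 0.737). The other Ddc probe set averaged 9.39 ± 0.40 in mutant and 8.82 ± 0.39 in control islets (SD). It was higher in the mutant array in 8 of 8 pairs, by 0.06 to 1.18, with a difference of 0.57 ± 0.18 (SE). That difference did not pass the test over all probe sets (limma adjusted p = 0.0697), and passed it with the replicate block (adjusted p = 0.0101). The sources used here do not say which Ddc transcripts each probe set reads.

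Dbh, which encodes dopamine beta-hydroxylase, the enzyme that turns dopamine into noradrenaline, was not called by any of its 3 probe sets. The brightest averaged 8.28 ± 0.19 in mutant and 8.14 ± 0.13 in control islets (SD, n = 8 each, limma adjusted p = 0.334). The _x_at ending of its identifier marks probes that may also bind other transcripts. The other Dbh probe sets differed by 0.02 and −0.08 (adjusted p = 0.914 and 0.683 over all probe sets).

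**Figure D2:**
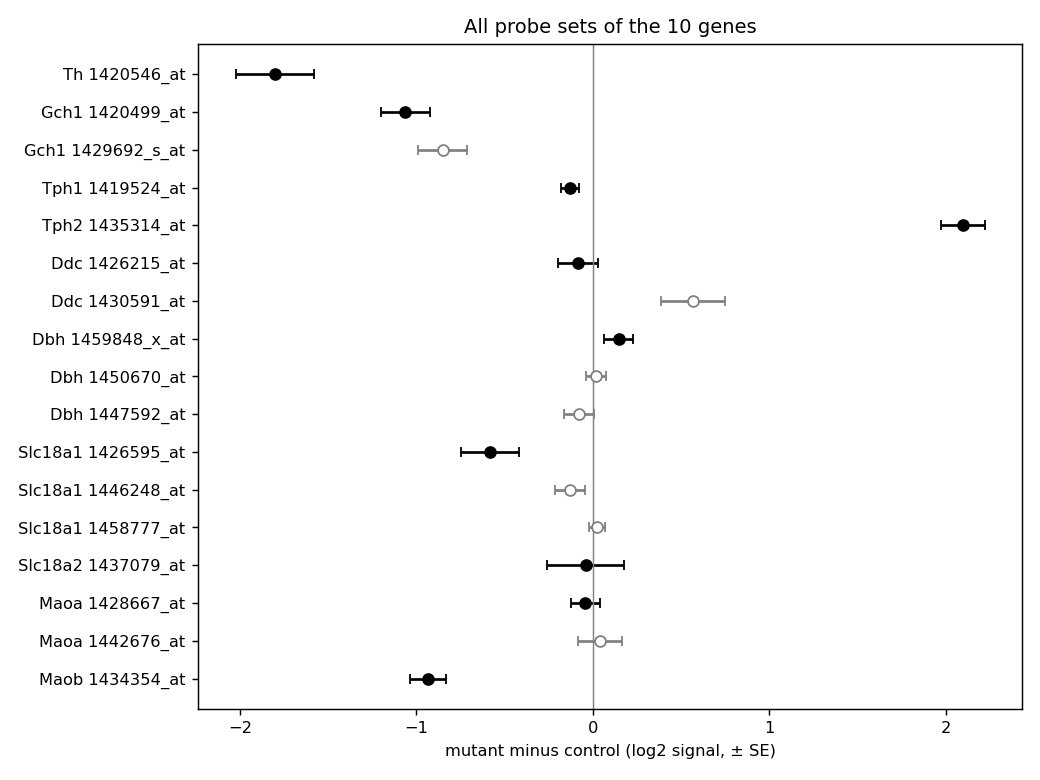
Difference between mutant and control islets (log2 signal, ± SE, n = 8 each) for all 17 probe sets of the 10 genes, with the brightest of each gene filled. The 2 probe sets of Gch1 both lie below 0, whereas those of Ddc lie at −0.09 and 0.57.

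Of the vesicular transporters, Slc18a1 was lower, and Slc18a2 was too dim for a change in its level to be read. Slc18a1 encodes vesicular monoamine transporter 1, best known from endocrine cells. Its brightest probe set lay at 6.93, 7.34 and 7.78 in mutant islets, against 7.55, 7.82 and 8.58 in control islets, with overlap between the groups. The means were 7.35 ± 0.33 in mutant and 7.93 ± 0.37 in control islets (SD, n = 8 each), a difference of −0.58 ± 0.16 (SE, limma adjusted p = 0.0317). It was lower in the mutant array in 8 of 8 pairs, by −0.41 to −0.79, and the pairing narrowed its error (±0.05 SE, adjusted p = 4.76e-05 with the replicate block). The call without the block was lost when any of mutant replicates 1, 4, 5 or 7 or control replicates 2, 3, 6 or 8 was left out (adjusted p 0.0531 to 0.067), without pairs 1 to 3 (−0.62, adjusted p = 0.169), and with the immune marker mean as a covariate (−0.55, adjusted p = 0.0528). Averaging all 3 probe sets gave a difference of −0.23 (adjusted p = 0.0798), and both dimmer probe sets lay under the olfactory receptor percentile on all 16 arrays.

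Slc18a2 encodes vesicular monoamine transporter 2, the form of monoamine neurons. Its signal lay at 3.85, 4.44 and 5.79 in mutant islets, against 4.22, 4.45 and 5.10 in control islets. All 16 arrays were under the olfactory receptor percentile. The difference was −0.04 ± 0.22 (SE, limma adjusted p = 0.946).

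Of the amine oxidases, Maob was lower in mutant islets and its neighbour Maoa was not called. Maob encodes monoamine oxidase B, which prefers phenylethylamine and also breaks down dopamine. It lay at 10.39, 10.79 and 11.05 in mutant islets, against 11.42, 11.63 and 11.98 in control islets, without overlap. The means were 10.78 ± 0.23 in mutant and 11.71 ± 0.20 in control islets (SD, n = 8 each). Maob was 1.91-fold lower in mutant islets (−0.94 ± 0.10 SE, limma adjusted p = 1.63e-05) and lower in 8 of 8 pairs. Maoa encodes monoamine oxidase A, the main serotonin-degrading form, and averaged 8.15 ± 0.18 in mutant and 8.20 ± 0.15 in control islets (SD). Its difference was −0.04 ± 0.08 (SE, limma adjusted p = 0.824), and that of its dimmer probe set was 0.04. Whether Maoa and Maob responded differently was not tested.

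**Figure D3:**
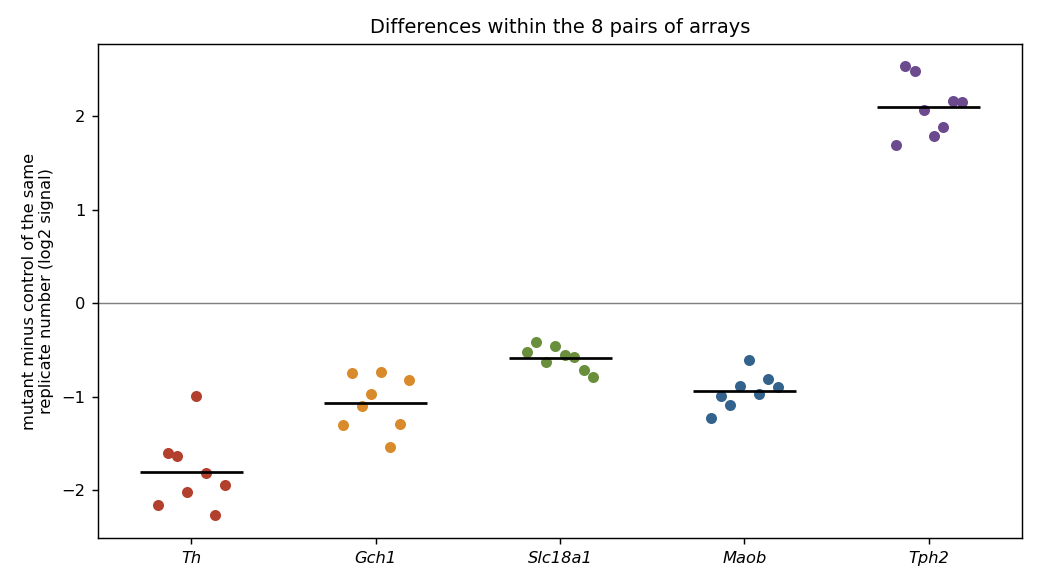
Mutant minus control array of the same replicate number (log2 signal) for Th and the 4 called genes, with 1 point per pair (n = 8) and a bar at the mean. All 8 points lie below 0 for Th, Gch1, Slc18a1 and Maob, and above 0 for Tph2.

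The genes did not vary as a single block from array to array. After the mean of each group was subtracted, Th correlated with Maoa at r = 0.71, with Gch1 at 0.52 and with Maob at 0.48 over the 16 arrays. Slc18a1 correlated with Maob at 0.68 and with Th at 0.32. Gch1 correlated with Slc18a2 at 0.80, and at 0.72 without mutant replicate 5, though all 16 Slc18a2 signals were under the olfactory receptor percentile. Tph2 correlated with Th at 0.13 and with Ddc at 0.52. These are descriptions of 16 arrays that share their preparation and, by number, their pair.

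Among all genes, those whose within-group pattern over the 16 arrays was most like that of Th were Fbxl17 (r = 0.87), Ndufs7 (0.86), Bcl7c (0.83), Adck2 (0.82) and Chchd10 (0.81). Of these, Fbxl17 was also lower in mutant islets (−0.36, limma adjusted p = 0.000385), and the other 4 were not called. The most opposite patterns were those of Cpa5 (−0.79), Zc3hav1 (−0.76) and Fabp4 (−0.73). For Gch1 the closest were Pycrl (0.92), Sult4a1 (0.92) and Tmem199 (0.90). The closest to Tph2 were Dhtkd1 (0.87), Gpr35 (0.86) and Exoc7 (0.86), and the means of Gpr35, Cpa5 and Erbb4 were below the olfactory receptor percentile. Slc18a1 was most like 1810062G17Rik (0.93), Smyd4 (0.92) and Pcca (0.92), and Maob most like Mfsd13a (0.92), Erbb4 (0.90) and Farp1 (0.90). These are the extremes of 18193 genes over 16 arrays and were not tested.

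In mouse, Th lies beside the insulin gene Ins2, which is its nearest measured neighbour on that side in the RefSeq order of genes. The Ins2 signal was 15.37 ± 0.01 in mutant and 15.36 ± 0.01 in control islets (SD, n = 8 each), close to the highest value of the data (15.39), so it cannot show a change. Igf2os, beyond Ins2, differed by −0.01. On the other side, Ascl2, Tspan32 and R74862 differed by −0.03, 0.04 and 0.04. The next gene, Cd81, a tetraspanin, moved opposite to Th, at 12.27 ± 0.17 in mutant and 11.38 ± 0.30 in control islets (0.90 ± 0.11 SE, limma adjusted p = 7.62e-05). Tssc4 differed by −0.35 (adjusted p = 0.218, but 0.0122 under the replicate block). The genes on either side of Tph2, Trhde and Tbc1d15, differed by 0.01 and −0.08 (adjusted p = 0.946 and 0.676). Ndp, on the far side of Maob from Maoa, differed by 0.06 (adjusted p = 0.499). Those beside Gch1, Samd4 and Wdhd1, differed by 0.44 and 0.17 (adjusted p = 0.0878 and 0.618, and 0.0149 for Samd4 with the block). Of those beside Slc18a1, Lpl differed by 0.41 (adjusted p = 0.108, and 0.0158 with the block), and Atp6v1b2, a subunit of the proton pump that acidifies granules, fell by 0.31 (adjusted p = 0.00663).

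Of 75 further genes on 8 lists, 57 were measured, 4 were lower and 1 was higher, which is 8.77% against 8.76% of all genes. With the replicate block, 7 were lower and 1 was higher, 14.0% of the 57 against 17.6% of all genes. The block added Pcbd2, Slc7a5 and Rnls. The median difference of the 57 was −0.01. In the tetrahydrobiopterin list, 1 of 7 was lower and 0 were higher, and 2 were lower with the block. The gene called by both fits was Qdpr, dihydropteridine reductase, which regenerates the cofactor after each hydroxylation. Qdpr averaged 12.25 ± 0.16 in mutant and 12.59 ± 0.15 in control islets (SD, n = 8 each), 1.26-fold lower in mutant islets (limma adjusted p = 0.00923). It was lower in 8 of 8 pairs, and both of its probe sets were called. The other enzymes of cofactor synthesis, Pts and Spr, differed by −0.14 and −0.10 and were not called (adjusted p = 0.38 and 0.475). Pcbd2, a paralog of the dehydratase that recycles the cofactor, differed by −0.22 (adjusted p = 0.0855, but 0.00885 under the block). Gchfr, the feedback regulator of GTP cyclohydrolase, differed by −0.12 (adjusted p = 0.475).

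Of 8 measured amine and precursor transporters of the plasma membrane, 2 were lower and 0 higher, and 3 were lower with the block. Slc7a8 and Slc3a2 encode a light chain and the heavy chain of the carriers for large neutral amino acids, which include the amine precursors. Slc7a8 averaged 9.72 ± 0.24 in mutant and 10.20 ± 0.30 in control islets (SD, n = 8 each, −0.48 ± 0.13 SE, limma adjusted p = 0.0222). Slc3a2 averaged 11.05 ± 0.10 in mutant and 11.34 ± 0.20 in control islets (−0.29 ± 0.08 SE, adjusted p = 0.0256). With the replicate block, the limma adjusted p was 0.000387 for Slc7a8 and 0.00476 for Slc3a2. Without the block, both calls were lost without pairs 1 to 3 (adjusted p = 0.0702 and 0.13). Both calls were also lost in the fit that includes the acinar mean (adjusted p = 0.0921 and 0.118). That of Slc3a2 was also lost with quantile normalisation (adjusted p = 0.0874) and on leaving out any of mutant replicates 2 and 4 and control replicates 2 and 8 (adjusted p 0.0511 to 0.0533). Slc7a5, which encodes another light chain of these carriers, differed by −0.40 (adjusted p = 0.0758, but 0.021 under the block). The serotonin transporter gene Slc6a4 read 5.25 in both groups, below the olfactory receptor percentile.

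Of 11 measured transcription factors of monoamine neurons, Nr4a2 was higher and Lmx1b lower. Nr4a2, which drives Th in midbrain dopamine neurons, lay at 9.33, 10.02 and 10.60 in mutant islets, against 8.24, 8.81 and 10.38 in control islets. The groups overlapped, but Nr4a2 was higher in the mutant array in 8 of 8 pairs (1.07 ± 0.29 SE, limma adjusted p = 0.0253), and 3 of its 6 probe sets were called higher. Averaging its probe sets gave a smaller difference of 0.58 (adjusted p = 0.0222). With the replicate block its limma adjusted p was 0.000319. Without the block, the call was lost on leaving out mutant replicate 5 or control replicate 6, 7 or 8 (adjusted p 0.0504 to 0.0549). Lmx1b, a factor of serotonin neurons, differed by −0.22 ± 0.06 (adjusted p = 0.027). With the replicate block its adjusted p was 0.0457, and 0.0559 when every probe set was tested with the block. The call without the block was lost without pairs 1 to 3 (adjusted p = 0.36) and on averaging its probe sets (−0.07, adjusted p = 0.484). It was also lost on leaving out any of mutant replicates 2 and 4 and control replicates 3, 4 and 6 (adjusted p 0.0517 to 0.0576).

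By limma, none of 13 serotonin receptors, 4 dopamine receptors, 2 adrenergic receptors, 9 enzymes of amine breakdown and conversion or 3 hydroxylase partners was called. At an unadjusted p under 0.05 the only one was Rnls, encoding the flavoprotein renalase, at 7.32 ± 0.09 in mutant and 7.51 ± 0.20 in control islets (SD, adjusted p = 0.143, but 0.0439 under the replicate block). The genes with the lowest p on the other lists were Htr1d (0.10, adjusted p = 0.327), Drd1 (0.07, adjusted p = 0.502), Adra1b (−0.11, adjusted p = 0.498) and Ywhae (0.05, adjusted p = 0.669). The means of 10 of the 13 serotonin receptors and 3 of the 4 dopamine receptors lay below the olfactory receptor percentile. Adra1b, 6 of the 11 transcription factors and 2 of the 8 plasma membrane transporters lay below it as well. Changes of the genes below it could not be read.

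**Figure D4:**
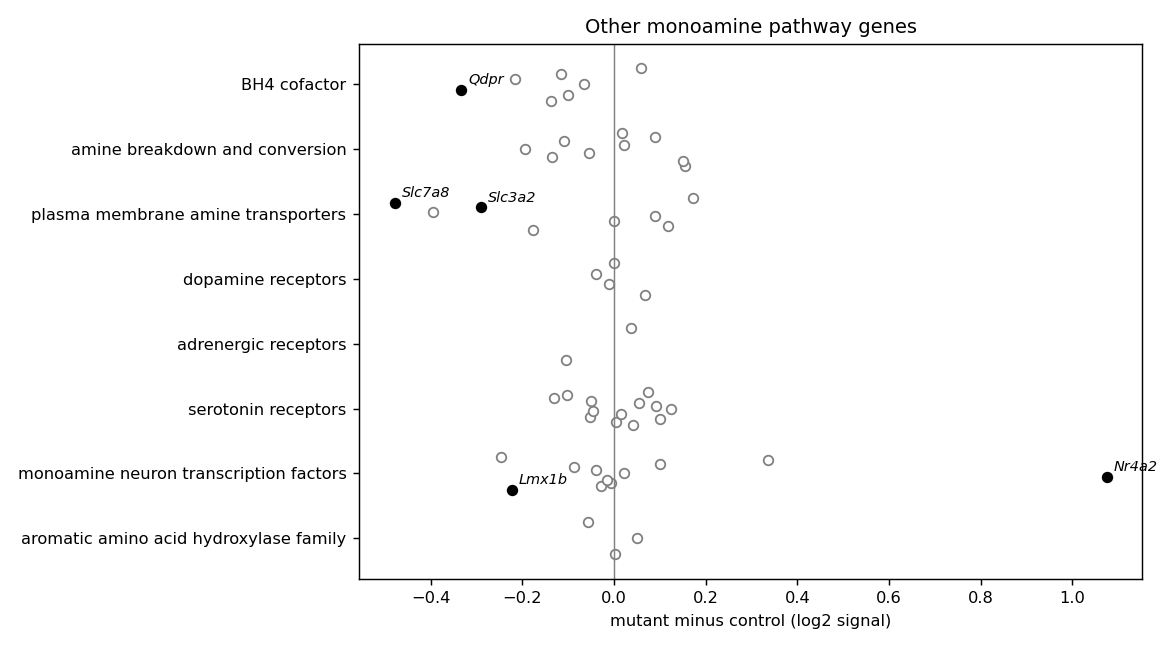
Difference between mutant and control islets (log2 signal, n = 8 each) for the 57 other pathway genes measured, 1 point per gene, grouped by list. Filled points are the 5 called at an adjusted p under 0.05, from −0.48 (Slc7a8) to 1.07 (Nr4a2).

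Markers of other cells were set beside these values, since fewer cells of a type and less RNA per cell cannot be told apart in whole islets. In both groups Ins2 lay close to the highest value of the data, as the islet label implies. This gives no measure of purity. Acinar markers were bright too, with a mean signal of 11.87 in mutant and 13.46 in control islets. Of 8 beta-cell markers, 6 were lower in mutant islets and 0 higher, and their mean signal per array was 12.55 to 12.87 in mutant and 13.14 to 13.29 in control islets. This shift moved with the falls of Th, Gch1, Slc18a1 and Maob, and its part in them was not tested. Within groups, the beta-cell mean correlated over the 16 arrays at r = 0.67 with Maoa, which was not called, at 0.66 with Maob, 0.63 with Tph2, 0.58 with Slc18a1, 0.56 with Th and 0.25 with Gch1. These correlations describe variation within groups and were not tested. Between groups, the shift of the markers and the genotype cannot be told apart.

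Markers of other islet and support cells also differed. Of 6 markers of alpha, delta and PP cells, 2 were higher (Irx1, 0.54, limma adjusted p = 0.00972, and Irx2, 0.75, adjusted p = 0.00791) and 0 lower. Their mean was 11.43 to 11.83 in mutant and 11.14 to 11.58 in control islets, and higher in the mutant array in 8 of 8 pairs. Of 5 duct markers, Krt19 was lower (−0.95, adjusted p = 0.0113, and 0.06 without pairs 1 to 3), and the duct mean was 6.53 to 7.03 in mutant and 6.89 to 7.35 in control islets, lower in the mutant array in 7 of 8 pairs. Of 6 stromal markers, Dcn was higher (1.29, adjusted p = 0.00814) and Acta2 lower (−0.98, adjusted p = 0.0105). The stromal mean was 8.70 to 9.57 in mutant and 8.86 to 9.41 in control islets. The part of these shifts in the values of the 10 genes was not tested.

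The mean of 8 acinar markers was 8.96 to 14.26 in mutant and 12.45 to 14.58 in control islets, and lower in the mutant array in 8 of 8 pairs. None of the 8 was called by limma (8 at an unadjusted p under 0.05), and all 8 were called lower with the block. On 4 mutant arrays the acinar mean lay below that of every control array. Within groups Th correlated with it at −0.67, Maoa at −0.63, Maob at −0.53, Slc18a1 at −0.48, and Gch1 and Tph2 at −0.38. Slc18a2, Ddc, Tph1 and Dbh correlated with it at −0.058, −0.044, 0.025 and 0.11. With the acinar mean as a covariate, the differences were −2.17 for Th, −1.19 for Gch1, −1.06 for Maob, −0.77 for Slc18a1 and 1.98 for Tph2, and the 4 genes other than Th were called. The mean of 13 immune markers was 7.32 to 10.20 in mutant and 7.33 to 9.10 in control islets, highest on mutant replicates 1 and 3 and control replicate 1. Without pairs 1 to 3, where 828 genes were called, the differences were −1.81 for Th, −1.07 for Gch1, −0.83 for Maob and 2.01 for Tph2, and Gch1, Maob and Tph2 were called.

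Mast cells and autonomic neurons also make or store monoamines. Of 9 mast-cell markers 0 were called by limma (1, Kit, at an unadjusted p under 0.05). Cpa3, Ms4a2, Fcer1a, Tpsb2, Cma1 and Mcpt4 were below the olfactory receptor percentile on all 16 arrays. Gata2 was above it on 16 arrays, Hdc on 15 and Kit on 8. The mean of the 9 markers was 5.39 to 5.66 in mutant and 5.27 to 5.57 in control islets. Of 9 markers of autonomic neurons 0 were called by limma (1, Elavl4, at an unadjusted p under 0.05), while Elavl4 was called lower with the block (−0.37, adjusted p = 0.117 without it and 0.00785 with it). Phox2a, Chat and Slc18a3 were below that percentile on every array, and Chrna3 was above it on 1. Elavl4 and Npy were above it on 16 arrays, Hand2 on 13, Gal on 11 and Prph on 10. The neuron marker mean was 6.16 to 7.35 in mutant and 5.85 to 6.82 in control islets. It correlated within groups with Slc18a2 at 0.84 over 16 arrays, and at 0.64 without mutant replicate 5, and with Th at 0.08. Among the called genes, its correlation was 0.56 with Gch1, 0.10 with Maob, −0.40 with Slc18a1 and −0.44 with Tph2. Slc18a2 also correlated with the means of the enterochromaffin (0.775) and Schwann cell (0.693) lists, and all its signals were under the olfactory receptor percentile. Gch1 correlated with the enterochromaffin and Schwann cell means at 0.699 and 0.494, and Th at 0.033 and 0.49. The values were −0.075 and 0.111 for Maob, −0.478 and −0.24 for Slc18a1, and 0.052 and −0.287 for Tph2. These relations were not tested.

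**Figure D5:**
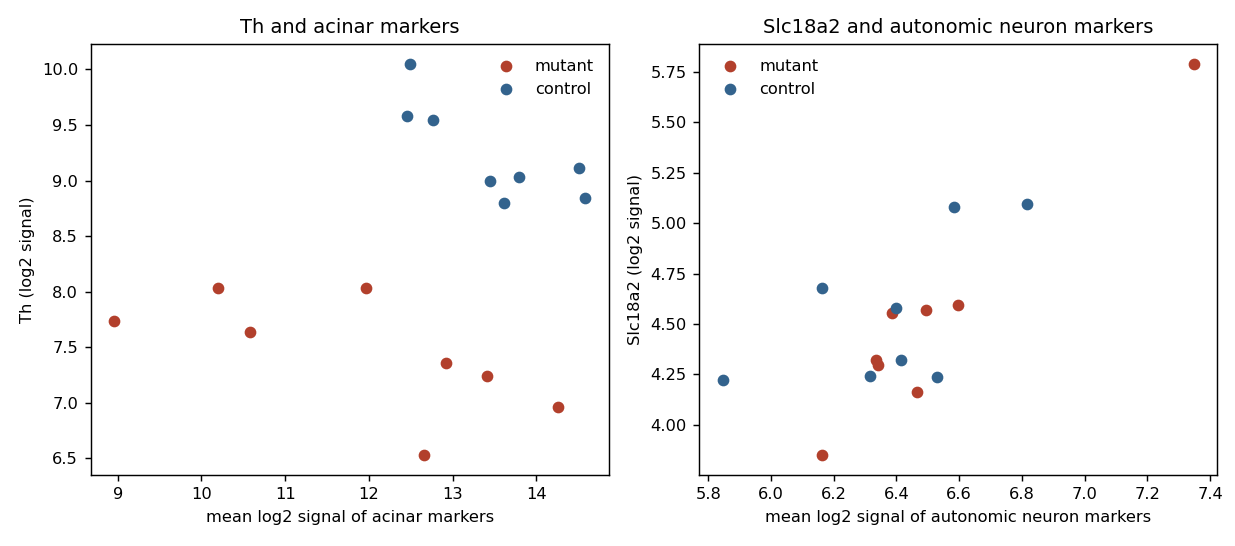
Each point is 1 array (8 mutant, 8 control). Th is plotted against the mean log2 signal of acinar markers (left) and Slc18a2 against that of autonomic neuron markers (right). Mutant arrays lie below all control arrays in Th, 4 of them at acinar values below the lowest control array (12.45), and mutant replicate 5 is highest in both Slc18a2 and neuron markers.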

How the data were processed

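The values used are log2 signals of probe sets, as deposited by the authors for each array. Per the labels' protocols, 150 ng of Trizol-extracted total RNA was amplified and labelled with the 3′ IVT Express kit. The sources used here give no background correction, summarisation or normalisation. The log base was taken from the range of the values. Array medians lay between 6.29 and 6.35, 10 arrays shared 1 highest value, 0 columns were the same, and pairs of arrays correlated at 0.971 to 0.993. Precision is limited by the number of arrays.

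Of 45101 probe sets, 64 controls were left out. The rest named 1 gene (34945), several (932) or none (9160) in the platform annotation, and 34741 symbols were updated to RefSeq on GRCm38.p6. Each of the 18193 genes was read from its brightest probe set. A gene that no probe set named alone was not analysed here.

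The groups were set against each other in R 4.3.3 with limma 3.58.1 (lmFit and trended eBayes, only genotype as a term, two-sided, Benjamini-Hochberg over all genes). "Called" means an adjusted p under 0.05. The steps were tested on simulated data with independent arrays, which does not cover arrays paired by number. The labels do not say what a replicate shares beyond litter-matched controls, so p-values measure the spread between these preparations. Deviations from the group means correlated between all 8 same-numbered pairs (0.237 to 0.735, median 0.466, against −0.10 between other numbers), so the numbers were taken to pair the arrays. The genes named are the 10 genes, up to 4 called genes per pathway list (or the 1 with the lowest p), the neighbours of called genes and the genes most like them. Pts, Spr, Gchfr, Slc6a4, Pcbd2, Slc7a5 and marker genes with values were added after their values were seen. The 10 genes, lists and alternatives were chosen with earlier results of these data known.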

Additional observations from a re-analysis of the deposited data

Results flagged for a closer look

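A single array stood apart from the other 7 of its group for 2 probe sets, out of 54 groups of 8 arrays examined. Chance flags about 1 in 20 such groups. Mutant replicate 5 read 5.79 for Slc18a2, where the other mutant arrays read 3.85 to 4.60. Mutant replicate 8 read 5.21 for the middle of the 3 Slc18a1 probe sets, where the other mutant arrays read 4.62 to 4.84. Both signals were under the 95th percentile of olfactory receptor probe sets (6.29).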

How the results depend on the processing

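The differences of Th, for which no test is given, ranged from −1.67 to −2.17 over all settings run. The falls of Gch1 and Maob were called under all settings run but 1, and the rise of Tph2 in all but 1 of those that tested it. The exception is the fit with the replicate block and both the acinar and immune means, which leaves 5 residual degrees of freedom. There limma called 15 of all genes and 0 of the 10 (4 of the 9 other than Th at an unadjusted p under 0.05), with differences of −2.01 for Th, −0.98 for Gch1, −0.80 for Maob, −0.75 for Slc18a1 and 1.85 for Tph2 (adjusted p = 0.397, 0.174, 0.223 and 0.0532 for the 4 after Th). All 5 kept their direction, and Lmx1b turned to 0.10 (adjusted p = 0.978). Over all genes, 1594 were called in the fit reported, 3200 with the replicate block, 828 without pairs 1 to 3, and 2398 of 34945 when every probe set was tested. The last with the block, an alternative chosen after seeing the data, called 4870. Leaving out each array gave 1324 to 1645 genes, and 3 to 4 of the 9 genes other than Th. Tph1, Tph2 and Slc18a2 were not tested where dim genes were left out. Ddc and Dbh, read from their brightest probe sets, were not called under any setting run. The block changed no call of the 10 genes read from these probe sets. Signals under background limit Tph1, Slc18a2 and the control level of Tph2. The mutant mean of Tph2 (6.59) lay within the range of the olfactory receptor probe sets, whose highest value was 6.89.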
